A study of Mus musculus with 18 samples.

Results

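Fc receptors bind the constant part of antibodies. The 7 mouse genes described here are Fcer1g, Fcgr1, Fcgr3, Fcgr4, Fcgr2b, Fcrls and Fcgrt, and they are 7 of the 23420 gene symbols counted in the retina. They were selected by family name after the results of all 3 comparisons of the study were known, and no threshold was applied. Their fold changes and p-values are therefore given as a description of these mice and not as independent evidence.

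Activating Fc gamma receptors bind IgG on phagocytes and signal through the common gamma chain, whose ITAM motif recruits the kinase Syk and leads to phagocytosis, oxidant production and cytokine release. The inhibitory receptor carries an ITIM motif and recruits phosphatases that restrain the same cells. The neonatal Fc receptor does not belong to this signalling pair: it binds IgG and albumin in acidic endosomes and returns them to the cell surface. In the retina, microglia are the resident cells best known for Fc gamma receptors.

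RNA of whole retinas was sequenced from 9 wild-type BALB/cJ mice, an albino strain, 3 in each of 3 groups. Naïve mice received neither light nor treatment. Vehicle-treated mice were exposed to 15000 lux for 1 h after dark adaptation for 16 h, were injected daily with DMSO from 1 day before the light, and were analysed 4 days after it. TD139-treated mice were exposed to light and sampled in the same way and received TD139, a small-molecule inhibitor of galectin-3, in DMSO at 15 mg/kg. Values given "under vehicle" and "under TD139" are those of these light-exposed groups. The study used mice of both sexes aged 8 to 10 weeks, but the sex of each mouse is not given in the sources used here. No unexposed group received DMSO, so light and vehicle cannot be told apart in the comparison with naïve mice. The mice are labelled as separate animals, and each was read in 2 runs whose counts were summed.

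Each mouse had 26171887 to 30201517 reads on genes. A count of 3, taken as the floor of detection, stood for 0.0993 to 0.115 CPM (counts scaled to library size with TMM factors), and it covers counting error only. The retinal label was checked with rod genes, whose summed level was 51229 to 64223 CPM in naïve, 28773 to 42081 under vehicle and 44011 to 56461 under TD139. A gene is called below when its Benjamini-Hochberg adjusted p-value over the 15196 tested genes was under 0.05 in edgeR's quasi-likelihood test. All 7 Fc receptor genes passed the filter on low counts, which was applied to the 3 groups together. Applied to TD139-treated and naïve mice alone, it passed 3 and left out Fcgr1, Fcgr4, Fcgr2b and Fcrls. Where the fold cutoff of the study is named, it is a log2 fold change of at least 2 in size.

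Positions are those of GENCODE M21 on GRCm38. The genes Fcgr2b, Fcgr4, Fcgr3 and Fcer1g lie within 275.749 kb of chromosome 1, at chr1:170958617-170976547, chr1:171018920-171029761, chr1:171051174-171064935 and chr1:171229572-171234365. Fcrls and Fcgr1 lie on chromosome 3, at chr3:87250758-87263738 and chr3:96282909-96293969, and Fcgrt lies at chr7:45092990-45103851. Of these genes, Fcgr4 alone is on the plus strand.

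The inhibitory Fcgr2b and the activating Fcgr3 have nearly the same ligand-binding part, which matters for reads of 50 bases. Of the 50-base windows in the transcripts of Fcgr3, 166 of 1733 (9.58%) also occurred in Fcgr2b, and 249 of 5685 windows of Fcgr2b (4.38%) occurred in another gene. The other 5 Fc receptor genes shared no window with another gene. The longest identical coding stretch of the pair is shown because reads inside it cannot be assigned to either receptor. It is 129 bases long and crosses 1 exon junction, running on the minus strand across chr1:170966674-170968081 in Fcgr2b and chr1:171054167-171057792 in Fcgr3, introns included.
Fcgr2b and Fcgr3: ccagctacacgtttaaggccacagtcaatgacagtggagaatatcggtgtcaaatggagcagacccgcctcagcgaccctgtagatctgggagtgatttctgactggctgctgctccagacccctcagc
The values of these genes below include whatever share of such reads the authors' counting kept. Fcgr2b also overlaps the antisense gene Gm38204 in exons, and whether the counting used strand is not given in the sources used here. Fcgrt overlaps the antisense gene Gm45669, but their exons share no base.

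The bases before the starts of the genes were searched for motifs of factors that myeloid cells use, because most of these genes were high in the same mice. The window was 250 bases before each RefSeq start on GRCm38.p6, on both strands, and the background was all 32851 such windows. The ETS core GGAAGT occurred before 4 of the 7 genes, Fcgr1, Fcgr4, Fcgr2b and Fcrls, against 19.7% of all windows. The longer PU.1 motif GAGGAAGT, which contains this core, occurred before Fcgr4 only, against 2.44% of all windows. The 30 bases around each core are shown with the motif in capitals. It is on the strand opposite to the gene in each case, so it reads as its reverse complement.
Fcgr1, chr3:96294013-96294042, minus strand: gcagaaatggcaACTTCCttcctcttttct
Fcgr4, chr1:171018891-171018920, plus strand: taaggctatttACTTCCTCtcttctagtca
Fcgr2b, chr1:170976085-170976114, minus strand: ccgtttcttttcACTTCCccatttggactt
Fcrls, chr3:87263582-87263611, minus strand: gacaactttgccACTTCCtttttttcctat
The first base of the motif stood 61, 24, 31 and 75 bases before these starts. The windows of Fcgr4, Fcgr2b and Fcrls overlap an exon that GENCODE M21 annotates for the same gene. That of Fcgr4 ends at 171018920, the first base of its only GENCODE transcript. Before Fcgr4 there was also an IRF motif, GAAANNGAA, which 7.13% of all windows hold, and before Fcgr1 a STAT motif, TTCNNNGAA, which 7.02% hold. The C/EBP motif TTGCNNAA occurred before Fcgr3 and Fcgrt, against 9.56% of all windows, and the AP-1 motif TGANTCA, held by 6.75%, before none of the 7. These are matches of letters, and no binding was measured.

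For all 7 genes the 3 vehicle-treated mice lay above each naïve mouse and above each mouse given TD139. In whole retina, more or fewer cells of a type and more or less RNA per cell cannot be told apart. Between vehicle-treated and naïve mice, 5 of the 7 genes were called higher, against 4.91% of all tested genes. The same 5 passed the fold cutoff too, against 1.24%, and groups without overlap in this direction were found for 16.7% of all genes. Comparing TD139 with vehicle, 6 of the 7 genes were called lower, against 16.2% of all tested genes. Of these, 5 passed the fold cutoff, against 1.53%, and 25.4% of all genes were lower in every TD139-treated mouse. Between TD139-treated and naïve mice none of the 7 was called, where 5.10% of all genes were, and the groups overlapped for all 7, whereas 32.2% of all genes had no overlap. Fcgr1, Fcgr4, Fcgr2b and Fcrls entered this comparison only through their vehicle-treated counts, so a call for them was unlikely and nothing is read from its absence. Because the genes were chosen with these contrasts known, nothing is read from their counts against the background.

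**Figure D1:**
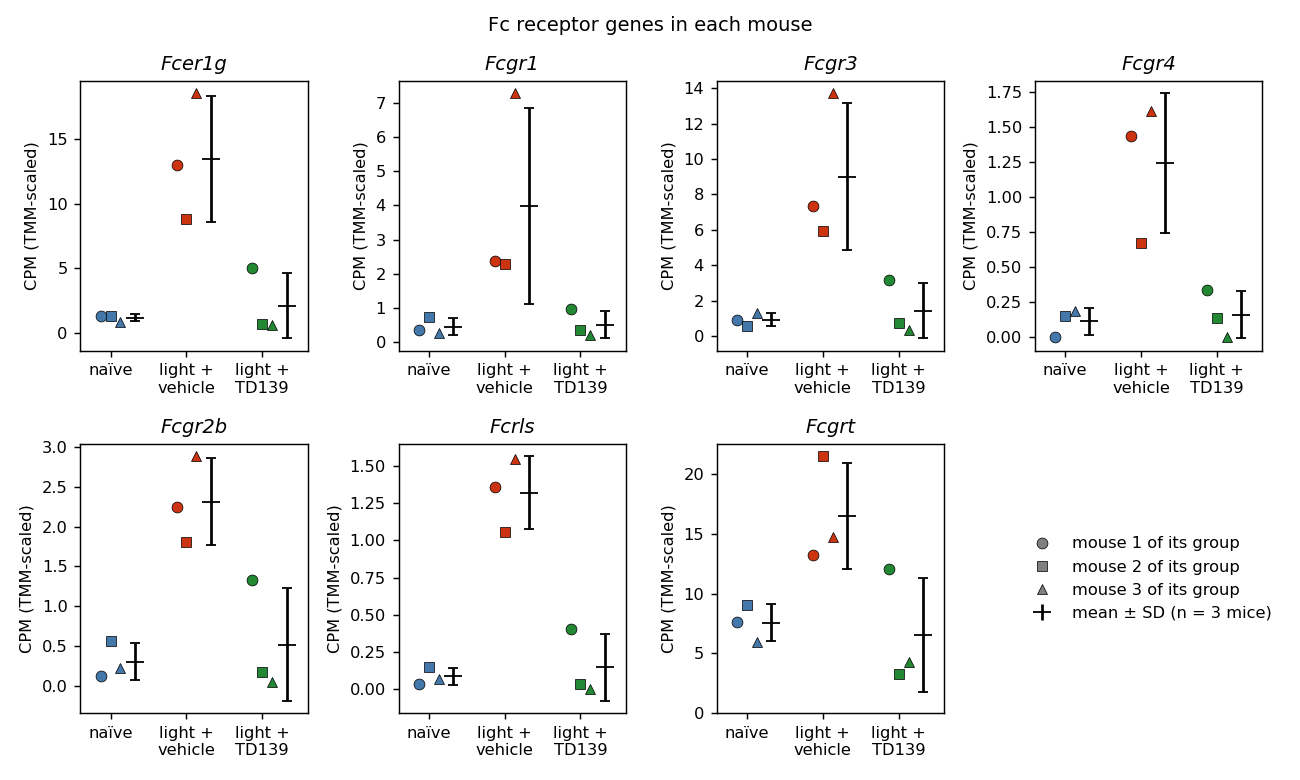
Level of each of the 7 Fc receptor genes in each mouse, in CPM on a linear axis of its own for each gene. Points are mice, with the shape giving the number of the mouse in its group, and the bar gives the mean ± SD (n = 3). In every panel the 3 vehicle-treated mice lie above the other 6 mice, and TD139-treated mouse 1 is the highest of its group.

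Fcer1g encodes the common gamma chain, which the activating receptors need for their surface expression and signalling. It had 35, 34 and 23 counts in the naïve mice, 364, 249 and 552 in the vehicle-treated mice, and 136, 20 and 15 in the TD139-treated mice. Its mean level was 1.16 ± 0.273 CPM (SD, n = 3) in naïve, 13.5 ± 4.89 under vehicle and 2.11 ± 2.54 under TD139. The vehicle-treated mice stood apart from both other groups, while 1 TD139-treated mouse lay above and 2 lay below the naïve range. Fcer1g rose by 3.54 ± 0.81 (log2 fold change ± SE, edgeR adjusted p = 0.0393) after light and vehicle. It was lower under TD139 than under vehicle, with a log2 fold change of −2.67 ± 0.77 (edgeR adjusted p = 0.0305). Over the settings run, the first call held in 14 of 21 and the second in 9 of 21.

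Fcgr1 encodes the high-affinity receptor for IgG. It was counted 9, 19 and 7 times in the naïve mice, 66, 65 and 217 times in the vehicle-treated mice, and 26, 10 and 5 times in the TD139-treated mice. Vehicle-treated mouse 3 lay far above the other mice of its group, at 7.29 CPM against 2.36 and 2.30. The group means were 0.439 ± 0.244, 3.98 ± 2.87 and 0.503 ± 0.406 CPM. Fcgr1 rose by 3.17 ± 0.67 on the log2 scale after light and vehicle (edgeR adjusted p = 0.0254), and its change under TD139 against vehicle was −2.97 ± 0.66 (edgeR adjusted p = 0.00993). The calls held in 16 and 20 of 21 settings. Without vehicle-treated mouse 3 its log2 fold change was 2.39 against naïve mice, which was not called (edgeR adjusted p = 0.0779), and −2.20 under TD139 against vehicle.

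Fcgr3, a low-affinity activating receptor found on most myeloid cells, had the highest level per length of the 4 Fc gamma receptor genes. It had 23, 15 and 35 counts in naïve, 206, 168 and 408 in vehicle-treated, and 86, 21 and 8 in TD139-treated mice. The means were 0.911 ± 0.360, 9.003 ± 4.14 and 1.41 ± 1.55 CPM. As for Fcer1g, the first TD139-treated mouse lay between the naïve and the vehicle-treated mice. Fcgr3 rose by 3.30 ± 0.76 on the log2 scale (edgeR adjusted p = 0.0368) after light and vehicle. Under TD139 it differed from vehicle by −2.67 ± 0.73 (edgeR adjusted p = 0.0235). The calls held in 14 and 16 of 21 settings.

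Fcgr4, an activating receptor with a preference for certain IgG subclasses, was near the floor of detection outside the vehicle-treated group. Its counts were 0, 4 and 5 in naïve, 40, 19 and 48 in vehicle-treated, and 9, 4 and 0 in TD139-treated mice. The mean levels were 0.111 ± 0.0978, 1.24 ± 0.499 and 0.158 ± 0.168 CPM. The log2 fold changes of 3.41 ± 0.86 (edgeR adjusted p = 0.0386) against naïve mice and −2.92 ± 0.82 (edgeR adjusted p = 0.0204) under TD139 rest on these few counts. The size of a ratio to so low a level is uncertain, and the calls held in 10 and 13 of the 19 settings that tested the gene.

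Fcgr2b, the inhibitory IgG receptor, was called in neither comparison. It had 3, 15 and 6 counts in naïve, 63, 51 and 86 in vehicle-treated, and 36, 5 and 1 in TD139-treated mice, with means of 0.300 ± 0.235, 2.31 ± 0.547 and 0.516 ± 0.712 CPM. The vehicle-treated mice again lay above all others, but the spread among naïve and among TD139-treated mice was wide. Its log2 fold change was 2.93 ± 0.90 (edgeR adjusted p = 0.0741) after light and vehicle and −2.15 ± 0.85 (edgeR adjusted p = 0.0752) under TD139. Over the settings run, 5 of 21 called it against naïve mice and 2 of 21 under TD139 against vehicle, with DESeq2 among them in both comparisons. The value against naïve mice was 2.16 in run 1, 4.47 in run 2 and 3.76 without naïve mouse 2.

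Because activating and inhibitory receptors act on the same cell, their balance was described within each mouse. The reads of Fcgr2b were 8.57%, 28.3% and 11.3% of the reads of Fcgr1, Fcgr3, Fcgr4 and Fcgr2b together in the naïve mice. They were 16.8%, 16.8% and 11.3% in the vehicle-treated mice, and 22.9%, 12.5% and 7.14% in the TD139-treated mice. The naïve and TD139-treated values rest on few reads: the exact 95% binomial interval was 16.8 to 42.3% for naïve mouse 2 (15 of 53 reads) and 0.181 to 33.9% for TD139-treated mouse 3 (1 of 14 reads), and such intervals cover counting error only. The ranges of the 3 groups overlapped. The log2 ratio of Fcgr2b to the sum of the 3 activating receptors, per transcript length, was −3.74 ± 1.21 (SD, n = 3) in naïve, −3.74 ± 0.34 under vehicle and −3.93 ± 0.90 under TD139. The difference between TD139-treated and vehicle-treated mice, −0.20, was smaller than the SD within either group. Without single mice, the difference ran from −0.67 to 0.24 for TD139 against vehicle and from −0.42 to 0.70 for vehicle against naïve mice. Beside the rise and fall of total IgG receptor reads by group, no shift in this ratio could be detected with 3 mice in each group at this depth.

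Fcrls, an Fc receptor-like gene that serves as a marker of microglia, had the lowest level of the 7 genes per length in each group. It had 1, 4 and 2 counts in naïve, 38, 30 and 46 in vehicle-treated, and 11, 1 and 0 in TD139-treated mice. The means were 0.0875 ± 0.0575, 1.32 ± 0.245 and 0.148 ± 0.226 CPM, and the vehicle-treated mice varied less among themselves than for any other of the 7 genes. The log2 fold changes, 3.85 ± 0.85 (edgeR adjusted p = 0.0269) against naïve mice and −3.12 ± 0.79 (edgeR adjusted p = 0.0142) under TD139, rest on counts near or under the floor in both other groups, so their sizes are uncertain. The calls held in 15 and 19 of 21 settings.

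Fcgrt encodes the heavy chain of the neonatal Fc receptor, which vascular and epithelial cells use as well as macrophages. Unlike the other genes it was well detected in naïve retinas, with 198, 241 and 163 counts. It had 370, 609 and 437 counts under vehicle and 325, 95 and 108 under TD139. Its means were 7.55 ± 1.55, 16.5 ± 4.42 and 6.54 ± 4.79 CPM. TD139-treated mouse 1, at 12.05 CPM, was close to the lowest vehicle-treated mouse at 13.2 CPM, while the others, at 3.31 and 4.27 CPM, lay below the naïve range of 5.97 to 9.08 CPM. The log2 fold change after light and vehicle was 1.12 ± 0.44 (edgeR adjusted p = 0.140) and was not called. Under TD139 it fell by 1.33 ± 0.45 on the log2 scale against vehicle (edgeR adjusted p = 0.0467), a call that missed the fold cutoff. This call held in 7 of 21 settings, the main one included. DESeq2 called Fcgrt in both comparisons (DESeq2 adjusted p = 0.0330 against naïve). In both comparisons with vehicle-treated mice Fcgrt had the smallest fold change of the 7 genes. Markers of epithelial and endothelial cells were read beside it. Of 3 tested genes of the retinal pigment epithelium, Ttr (73.8 ± 38.2, 152 ± 59.7 and 56.8 ± 15.9 CPM) and Rpe65 (22.8 ± 7.90, 33.8 ± 8.31 and 19.0 ± 4.54 CPM) were called lower under TD139 (−1.42 and −0.83), and none was called against naïve mice. Of 6 endothelial genes, Cldn5 was called lower under TD139 (−0.71) and none against naïve mice, and 16.2% of all genes were called lower under TD139. The summed ranges were 521 to 774, 839 to 863 and 593 to 738 CPM for the epithelial genes, mostly Rlbp1, which Mueller glia express too. They were 225 to 295, 369 to 541 and 268 to 522 CPM for the endothelial genes, mostly Kdr (176, 335 and 267 CPM). Against naïve mice the log2 fold change of Kdr was 0.93, and those of the other endothelial genes ran from −0.003 (Pecam1) to 0.55 (Flt1). The part of either set in the values of Fcgrt was not tested.

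**Figure D2:**
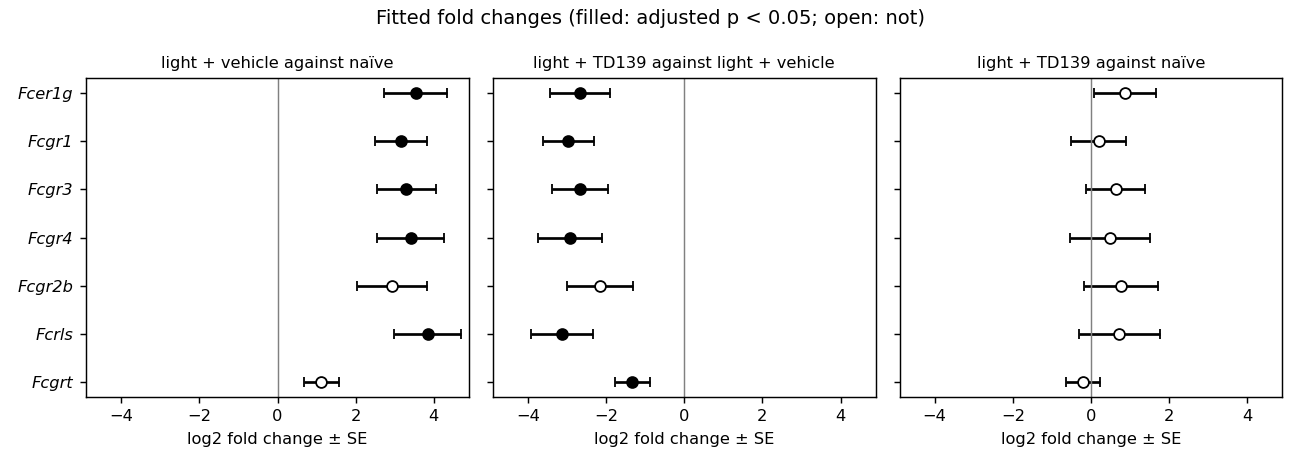
Log2 fold change ± SE of each gene in the 3 comparisons, from 1 edgeR fit of all mice. Filled points had an adjusted p-value under 0.05, and the first 2 panels share the vehicle-treated mice. The values run from 1.12 to 3.85 in the first panel and from −3.12 to −1.33 in the second, and no point is filled in the third.

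Over the 7 genes, the median log2 fold change was 3.30 for vehicle-treated against naïve mice, where that of all tested genes was −0.00. It was −2.67 for TD139-treated against vehicle-treated mice, where that of all genes was −0.02. These comparisons share the vehicle-treated mice, so their values are not independent of each other. The third comparison sets no level against those mice, but they enter the same fit and its estimate of the spread. Between TD139-treated and naïve mice the log2 fold changes were 0.87 ± 0.79 for Fcer1g, 0.20 for Fcgr1, 0.63 for Fcgr3, 0.49 for Fcgr4, 0.77 for Fcgr2b, 0.73 for Fcrls and −0.21 ± 0.45 for Fcgrt. The edgeR adjusted p-values of the 7 genes lay between 0.504 and 0.881, and no unadjusted p was under 0.05. DESeq2 gave an adjusted p for only Fcer1g, Fcgr3 and Fcgrt, and called none of these. With this spread, and with Fcgr1, Fcgr4, Fcgr2b and Fcrls tested only because of their vehicle-treated counts, equal levels are not shown.

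The calls depended on single mice. Against naïve mice, 0 of the 7 genes were called without naïve mouse 1, 2 or 3 or without vehicle-treated mouse 3, and 1 without vehicle-treated mouse 1. In these fits the calls among all genes, in either direction, fell from 7.80% to 0.591%, 0.00647%, 1.41%, 0.547% and 1.62%. For TD139 against vehicle, 0 genes were called without TD139-treated mouse 2, 1 without mouse 3, 2 without vehicle-treated mouse 3 and 3 without vehicle-treated mouse 1, while the share of all genes called went from 33.4% to 10.5%, 12.4%, 16.4% and 28.5%. In the same comparison 7 genes were called without TD139-treated mouse 1, where 38.4% of all genes were, and the log2 fold changes were then −4.37 for Fcer1g, −3.84 for Fcgr1, −4.08 for Fcgr3, −4.01 for Fcgr4, −4.35 for Fcgr2b, −5.85 for Fcrls and −2.12 for Fcgrt. The direction of each gene against the vehicle-treated mice was the same in 138 of 138 fitted values for either comparison over the alternatives run. These mice lay above all others for all 7 genes and the settings reuse the same reads. A reversal was therefore unlikely, and nothing is read from this count. Under scaling by library size alone, 893 of all genes were called higher and 258 lower against naïve mice (746 and 439 with TMM), and 1942 higher and 3040 lower for TD139 against vehicle (2617 and 2455 with TMM).

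Within the groups the Fc receptor genes were ordered much alike. Vehicle-treated mouse 3 was the highest of its group for 6 of the 7 genes, all except Fcgrt, and mouse 2 was the lowest for 6. TD139-treated mouse 1 was the highest for 7 of 7 genes and mouse 3 the lowest for 6. The naïve mice had no such order, with mouse 2 the highest for 4 genes, mouse 3 for 2 and mouse 1 for 1. Relative to the naïve mean, TD139-treated mouse 1 had 1.59-fold to 4.66-fold levels (median 3.501), mouse 2 had 0.398-fold to 1.25-fold and mouse 3 had 0 to 0.565-fold. Relative to the vehicle mean, mouse 1 had 24.2 to 73.1% of the level. Without this mouse, the log2 fold change under TD139 against naïve mice turned negative for the 6 genes in which it was positive, down to −1.997 for Fcrls, and Fcgrt was called lower at −0.99 (edgeR adjusted p = 0.0414). Within the TD139 group, these genes thus lay above the naïve mean in mouse 1, below it in mouse 3, and below it in mouse 2 except for Fcgr4.

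Levels were compared between genes per kilobase of transcript. In naïve retinas the order was Fcgrt (4.27 ± 0.878 CPM per kb), Fcer1g (1.69 ± 0.400), Fcgr3 (0.676 ± 0.267), Fcgr1 (0.170 ± 0.0941), Fcgr4 (0.0886 ± 0.0779), Fcgr2b (0.0847 ± 0.0664) and Fcrls (0.0385 ± 0.0253). The ranges of the first 3 did not overlap with those of their neighbours, whereas each of the last 4 overlapped its neighbour in the order. In vehicle-treated retinas Fcer1g stood first at 19.7 ± 7.16 CPM per kb, with a range of 12.9 to 27.2 above that of Fcgrt, 7.47 to 12.2. Fcgr3 followed at 6.68 ± 3.07 and overlapped Fcgrt. Fcgr1 (1.54 ± 1.11), Fcgr4 (0.986 ± 0.398), Fcgr2b (0.653 ± 0.154) and Fcrls (0.581 ± 0.108) followed, and each overlapped its neighbour among these 4. In TD139-treated retinas Fcgrt (3.70 ± 2.71 CPM per kb) and Fcer1g (3.09 ± 3.72 CPM per kb) were again the highest and did not differ beyond their spread.

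As a share of the summed level per kb, Fcgrt made up 60.5 ± 3.28% (SD, n = 3) of the 7 genes in naïve, 25.2 ± 11.5% under vehicle and 51.8 ± 14.4% under TD139. Fcer1g, which pairs with the activating receptors, made up 24.0 ± 3.45%, 49.2 ± 7.55% and 31.0 ± 9.32%. Fcgr3 made up 10.2 ± 5.53%, 16.4 ± 3.11% and 11.5 ± 4.32%. The recycling receptor thus had the largest share in naïve mice, and the gamma chain had it under vehicle, followed by Fcgrt in the group mean. In vehicle-treated mouse 3, Fcgr3 (19.9%) lay above Fcgrt (16.2%).

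**Figure D3:**
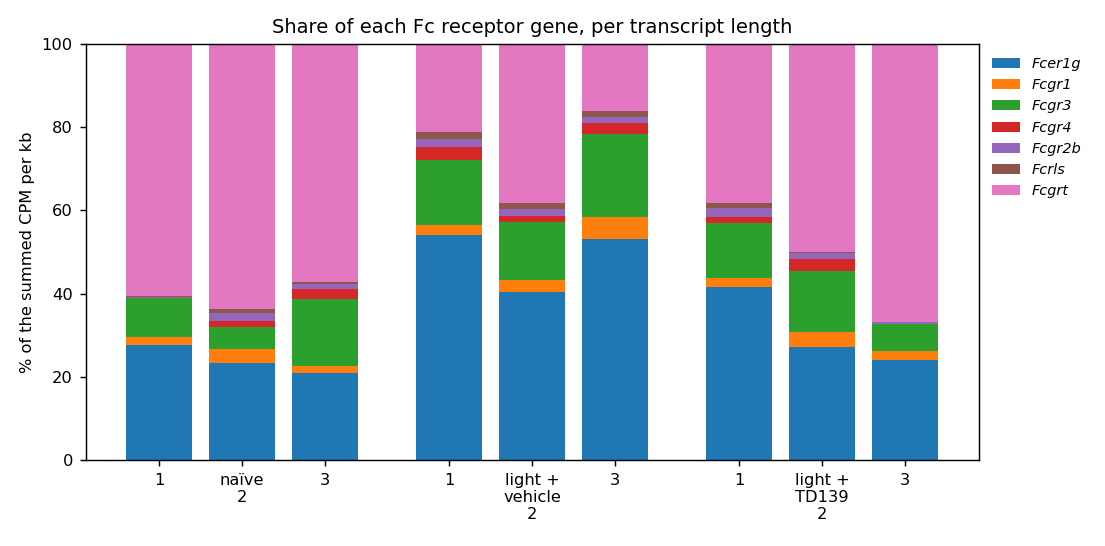
Share of each Fc receptor gene in the summed CPM per kb of the 7 genes, in percent, with 1 bar for each mouse and the mice of a group side by side. Fcgrt holds 57.2 to 63.7% in the naïve mice and 16.2 to 38.2% in the vehicle-treated mice, and TD139-treated mouse 1, at 38.4%, is the lowest of its group.

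Microglial transcripts moved with the same groups. The summed level of 10 microglia markers was 55.5 to 66.0 CPM in naïve, 164 to 218 under vehicle and 46.9 to 98.8 under TD139, and the highest TD139-treated value was again that of mouse 1. The other groups did not follow the order of the Fc receptor genes. The highest vehicle-treated value was that of mouse 2, the lowest of its group for 6 of the 7 genes, and the highest naïve value was that of mouse 1. Of the 10 markers, 5 were called higher against naïve mice, where 4.91% of all genes were, including Cx3cr1, the fractalkine receptor (log2 fold change 2.07), and Tmem119, a marker of resident microglia (1.31). Under TD139 against vehicle, 6 were called lower, where 16.2% of all genes were, with −1.52 for Cx3cr1 and −1.26 for Tmem119. The microglia markers P2ry12 (1.20 and −0.29) and Siglech (0.60 and 0.01) were called in neither comparison. The mean log2 CPM of the 6 Fc receptor genes without Fcgrt was set against that of the 10 markers in each mouse. The difference, Fc receptor genes minus markers, was −3.45, −2.06 and −2.53 in the naïve mice, −0.88, −1.49 and −0.35 in the vehicle-treated mice, and −1.61, −2.89 and −4.04 in the TD139-treated mice. The group means of this difference were −2.68 ± 0.71 (SD, n = 3), −0.90 ± 0.57 and −2.85 ± 1.21. The vehicle-treated mice did not overlap with either other group, and their mean was 1.77 above that of the naïve mice and 1.94 above that of the TD139-treated mice. The difference between TD139-treated and naïve mice was −0.17, within the spread. The 6 genes were chosen with these contrasts known, and Fcrls among them is itself used as a microglia marker, so nothing is read from their level relative to the markers. The part of cell number in these values was not tested.

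**Figure D4:**
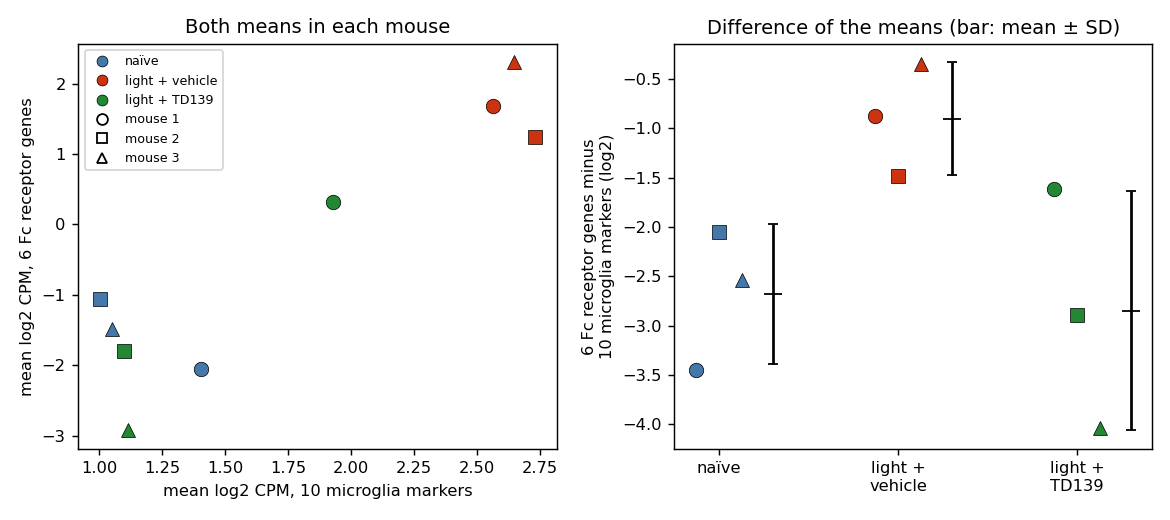
Left, mean log2 CPM of the 6 Fc receptor genes without Fcgrt against that of the 10 microglia markers, with 1 point for each mouse. Right, the difference of the means in log2 units with the group mean ± SD (n = 3), where the vehicle-treated mice lie between −1.49 and −0.35 and all others at −1.61 or below.

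Markers of other cells that carry Fc receptors were read in the same mice. The summed level of 10 monocyte and macrophage genes was 16.5 to 16.9 CPM in naïve, 65.0 to 109 under vehicle and 18.3 to 43.8 under TD139. Under vehicle most of it was lysozyme, Lyz2, at 1.17 ± 0.655, 76.9 ± 28.3 and 9.46 ± 15.0 CPM, which microglia can express too and which was not called (edgeR adjusted p = 0.0741 against naïve). In the other groups the largest contributor by mean was Lyve1, which lymphatic endothelium expresses too, at 14.9 ± 0.537, 12.9 ± 2.16 and 17.3 ± 1.46 CPM. Lyve1 was not called against naïve mice (−0.21) and was called higher under TD139 (0.43), and the monocyte gene Ly6c2 was called in neither comparison (0.22 and −0.08). The macrophage gene Ms4a7, at 0.0244 ± 0.0423, 1.66 ± 1.17 and 0.186 ± 0.289 CPM, was called higher after light and lower under TD139, but its naïve level was under the floor, so no fold is given. Ccr2, which marks circulating monocytes, was at 0 in the naïve mice, at 0.154 ± 0.159 CPM under vehicle and 0.0124 ± 0.0214 CPM under TD139. Neutrophil genes summed to 0.346 to 0.603, 2.40 to 2.92 and 0.452 to 2.00 CPM, nearly all of it Csf3r (0.450, 2.36 and 0.879 CPM), a receptor gene not specific to neutrophils, which was called higher after light (2.38). The neutrophil granule genes S100a8, S100a9, Camp, Ngp, Retnlg and Elane had at most 11 counts in a mouse and were not tested. Of 7 natural killer cell genes, 5 were at 0 in all mice, including the defining Ncr1, and the sum did not exceed 0.110 CPM. Mast cell and basophil genes summed to 0 CPM in naïve, 0.0336 to 0.777 under vehicle and 0 to 0.111 under TD139, with Ms4a2 and Mcpt8 at 0 in all mice. B and plasma cell genes summed to 1.58 to 2.62 CPM over all mice with Ms4a1 at 0. T cell genes summed to 0.188 to 0.330 CPM in naïve, 0.393 to 1.11 under vehicle and 0.198 to 0.297 under TD139. Of these, Cd3e and Cd3g were at 0, and no gene had more than 17 counts in a mouse. Which of the myeloid cells gave the Fc receptor reads was not tested.

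The downstream pathway of the activating receptors was read from 24 genes, all of which were tested. Of these, 10 were called higher and 0 lower after light and vehicle against naïve, where 4.91% of all genes were called higher, and the median log2 fold change was 2.14. Under TD139 against vehicle, 13 were called lower, where 16.2% of all genes were, and 0 higher, with a median of −1.76. None was called between TD139-treated and naïve mice, where 5.10% of all genes were, and the median was 0.25. Syk, the kinase recruited by the gamma chain, rose from 0.323 ± 0.197 to 2.46 ± 0.411 CPM, a log2 fold change of 2.90 ± 0.70 (edgeR adjusted p = 0.0349). Its value under TD139 was 0.813 ± 0.780 CPM, and the log2 fold change of −1.59 ± 0.64 against vehicle was not called (edgeR adjusted p = 0.0762). The exchange factor Vav1 (3.11), the kinase Btk (2.88) and the adaptor Blnk (2.80) rose after light, and the Src-family kinase Fgr (−3.16), the GTPase Rac2 (−2.79) and the oxidase subunit Cybb (−2.73) were called lower under TD139. The naïve level of Btk, 0.150 ± 0.164 CPM, and the TD139 level of Fgr, 0.136 ± 0.107 CPM, were near the floor. Vav1 was at 0.301 ± 0.0415 CPM in naïve mice and Cybb at 0.297 ± 0.481 CPM under TD139. The sizes of these folds are therefore uncertain. Cyba, the partner of Cybb in the phagocyte oxidase, had 5.77 ± 0.791, 19.5 ± 5.31 and 4.68 ± 3.46 CPM and was called in both comparisons (1.75 and −2.06). The genes of this list with the highest counts that many retinal cells use, Fyn (0.16 and −0.19), Vav3 (0.30 and 0.20) and Prkcd (0.37 and −0.37), were not called in either.

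**Figure D5:**
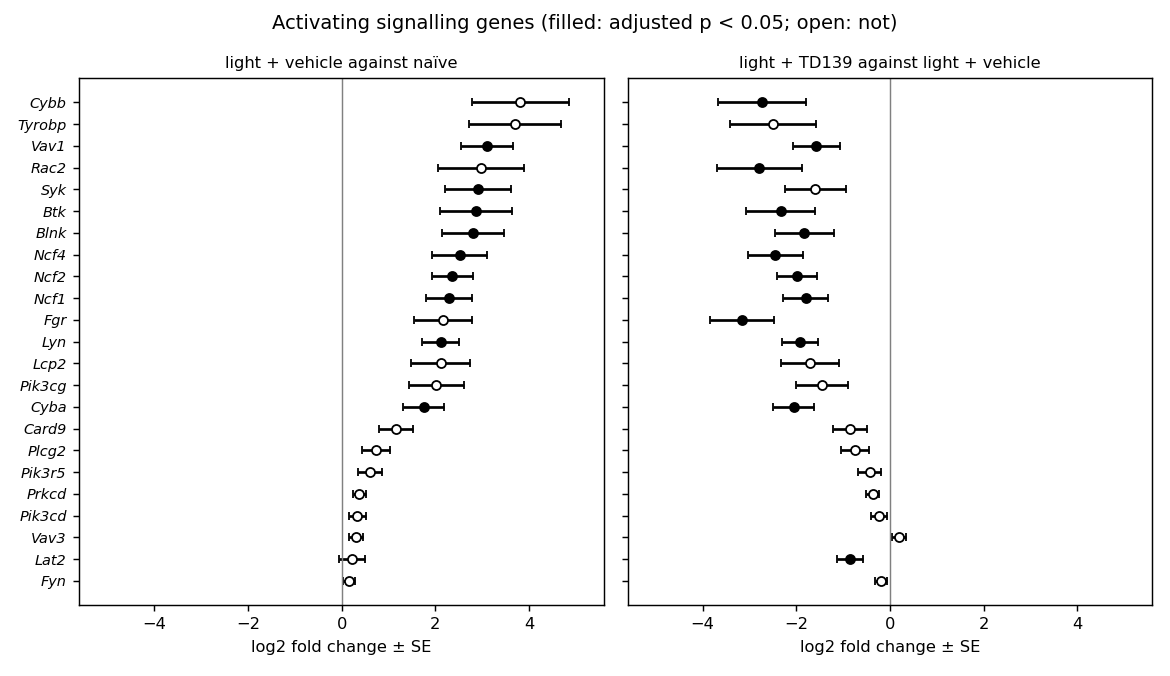
Log2 fold change ± SE of 23 genes of activating Fc receptor signalling, ordered by the left panel. Filled points had an adjusted p-value under 0.05, 9 of 23 for light and vehicle against naïve and 12 of 23 for TD139 against vehicle, and both panels share the vehicle-treated mice.

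Of 11 tested genes of inhibitory signalling, 2 were called higher after light, where 4.91% of all genes were: Ptpn6, the phosphatase SHP-1 (1.73 ± 0.44, edgeR adjusted p = 0.0384), and Cd300a, an inhibitory receptor (3.62 ± 0.83, edgeR adjusted p = 0.0300). Cd300a had a mean of 0.150 CPM in naïve mice, near the floor, so the size of this fold is uncertain. Under TD139 against vehicle, 3 were called lower, Ptpn6 (−1.83), Cd300a (−2.16) and Inpp5d, the phosphatase SHIP-1 that Fcgr2b recruits (−0.87). The ubiquitin ligases Cbl (2.07) and Cblb (0.43) were called higher. These 3 and 2 of 11 genes lie near the shares of all genes called in this comparison, 16.2% lower and 17.2% higher. Inpp5d had 4.32 ± 0.837 CPM in naïve and 7.90 ± 2.89 CPM in vehicle-treated mice and was not called there (edgeR adjusted p = 0.0677). Of the 4 members with the highest counts, Ptpn11, Csk and Dok3 were not called in either comparison, whereas Cblb, which had more counts than Dok3, was called as given above. The median log2 fold changes of the list were 0.06 and −0.14.

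Fcgrt works as a heterodimer with beta-2 microglobulin, encoded by B2m, which also pairs with MHC class I molecules. B2m had 16.2 ± 2.10 CPM in naïve, 124 ± 53.8 under vehicle and 25.3 ± 23.4 under TD139. Its log2 fold change of 2.93 ± 0.69 against naïve mice was not called (edgeR adjusted p = 0.0531), and that of −2.29 ± 0.67 under TD139 was (edgeR adjusted p = 0.0406). Of 7 tested partners in endosomal recycling, Myo5b, a motor of recycling endosomes, was called higher after light (0.69) and B2m and Rab4a (−0.39) lower under TD139, while Snx1 and Rab11a were called in neither. Over all genes, 4.91% were called higher after light and 16.2% lower under TD139, so the count under TD139 lies near the background. The albumin gene Alb, whose product is a ligand of the receptor, had at most 12 counts in a mouse. Immunoglobulin genes, which would encode the ligands of the family, were not analysed here.

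Of 12 other genes of receptors for antibodies in the counts, 4 passed the filter on low counts, and Fcer2a, Ms4a2 and Fcrl5 had 0 counts in all mice. Ms4a2 and Fcer1a encode the IgE receptor chains that share Fcer1g with the IgG receptors, and Fcer1a had a mean of 0.0235 CPM in vehicle-treated mice and 0 in the others. Trim21, the cytosolic receptor for antibody-coated pathogens, was called in both comparisons: it had 3.54 ± 0.455, 7.67 ± 2.32 and 3.76 ± 1.501 CPM, with log2 fold changes of 1.11 ± 0.30 (edgeR adjusted p = 0.0456) and −1.03 ± 0.30 (edgeR adjusted p = 0.0232). Fcamr (0.92 and 0.62), Pigr (0.22 and −0.30) and Fcgbp (0.11 and −0.22) were not called in either.

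The genes whose log2 CPM followed each Fc receptor gene most closely over the 9 mice are given as a description, since the groups set most of such a correlation. For Fcer1g these were Tyrobp, which encodes the similar adaptor DAP12 (Pearson r = 0.994), Pdgfa (0.994), Pbxip1 (0.991), the complement gene C1qa (0.991) and Apoe (0.990). Tyrobp had log2 fold changes of 3.71 ± 0.98 and −2.50 ± 0.92 that were not called (edgeR adjusted p = 0.0651 and 0.0737). Fcgr3 was followed by the receptor gene Csf1r (0.992), the oxidase gene Ncf1 (0.990) and Cyth4 (0.987). For Fcgr1 these were Gm8909 (0.994), the interferon-induced Gbp1 (0.988) and the inflammasome protease gene Casp1 (0.986). Fcgr4 was followed by Apobr (0.977), the integrin gene Itgax (0.975) and Arhgap25 (0.974), and Fcgr2b by Sh3bp4 (0.990), Pld4 (0.986) and the complement receptor gene C3ar1 (0.980). Pld4 (0.993) was also closest to Fcrls, before Cmtm3 (0.991) and Anxa5 (0.989). For Fcgrt the closest were Bcam (0.990), Bdh2 (0.989) and Gpx8 (0.987). Among the 15 pairs of the 6 genes without Fcgrt, r lay between 0.867 and 0.985, and between 0.541 and 0.991 after the group means were removed. For Fcgrt with the other 6 genes these ranges were 0.706 to 0.896 and 0.284 to 0.784.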

How the data were processed

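For each of the 9 mice and each of 2 runs, the authors deposited counts, the whole-number reads assigned to each gene symbol, without scaling. The study's data statement speaks of normalized counts, but the values held are whole numbers with a different total in each mouse, and they were used as raw counts. Their processing notes name mm10. The aligner version and annotation are not given in the sources used here. Libraries were stranded poly(A) libraries. Both runs of each animal were added up, so that 1 mouse is 1 replicate. Reads in no gene (16.5 to 22.8%) and ambiguous reads (0.303 to 0.471%) were left out.

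Counts were fitted in edgeR 4.0.16 (R 4.3.3) with filterByExpr, TMM scaling, robust quasi-likelihood tests and all 3 groups in 1 model. SE is the log2 fold change divided by the root of F. The fold cutoff is that of the study. CPM and fold changes were computed here, log2 CPM with a prior count of 1. Transcript lengths and positions came from GENCODE M21, joined for 98.4% of symbols, and promoters from RefSeq. The steps were tested on simulated data.

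The 7 genes and the gene lists were chosen with earlier results of these data known. Named genes are the 7, up to 4 of each list by mean count, up to 4 more called with the largest change, and the genes most like each of the 7, except that 1 gene that meets these rules is not reported here. Marker genes were named as defining genes after their values were seen. Scores over the 7 genes are given without p-values. Alternatives were DESeq2 1.42.0, other scaling and filters, only the groups compared, a replicate block, an offset for length and GC content, single runs, and each mouse left out.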

Additional observations from a re-analysis of the deposited data

Results flagged for a closer look

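The share of reads that fell in no gene was at least 21.3% in the TD139-treated mice, above the 19.1 to 19.9% of the naïve mice and the 16.5 to 19.4% of the vehicle-treated mice. It was looked at because these reads enter no comparison of the Fc receptor genes and exceeded the level of the control mice. Their part in the values of these genes was not tested.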

How the results depend on the processing

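Of the 7 genes, 5 were called for light and vehicle against naïve mice. This count was 2 with no filter on low counts, 3 with a replicate block, 1 with run 1 only, and 0 to 7 when single mice were left out, where the share of all genes called in either direction was 5.37%, 5.92% and 6.79% in the first 3, against 7.80%. For TD139 against vehicle, 6 were called; the count was 3 with only the 2 groups compared, 3 with the length and GC offset, 2 with that offset and the replicate block, and 0 to 7 without single mice, where all genes gave 33.9%, 20.0% and 18.7% in the first 3, against 33.4%. DESeq2 called 7 in each of these comparisons, with 15.9% and 38.6% of all genes. For TD139 against naïve mice it was 0, and 0 to 1 without single mice, where 0 to 17.4% of all genes were called. The fit without TD139-treated mouse 1, which made the 1 call, called 10.7% of all genes. The replicate numbers did not pair the mice: correlations of same-numbered mice ran from −0.26 to 0.29, and 2 of 9 mice were nearest to their own number. The block left 5 calls for TD139 against vehicle, with 31.4% of all genes called, and 0 for TD139 against naïve, where 0 of all genes were called. Directions against the vehicle-treated mice held under the alternatives run, which the separation of these mice from all others made likely. Between TD139-treated and naïve mice the log2 fold changes without single mice were −0.83 to 1.31 for Fcer1g, −0.66 to 0.75 for Fcgr1, −0.77 to 1.11 for Fcgr3, −0.58 to 1.05 for Fcgr4, −1.41 to 1.61 for Fcgr2b, −1.997 to 1.34 for Fcrls and −0.99 to 0.12 for Fcgrt, and Fcgrt was 0.062 with the length and GC offset. The cause was not tested. The log2 difference of the 6 genes from the microglia markers stayed at 1.39 to 2.09 against naïve mice and −2.56 to −1.35 for TD139 against vehicle without single mice. Run 2 only gave no Fcgr2b ratio, since 1 mouse had 0 counts, and Fcgr4 was not tested under the filter of 1 CPM in 3 mice or in run 1. With only TD139-treated and naïve mice in the fit, Fcgr1, Fcgr4, Fcgr2b and Fcrls were not tested. Counts under 10 in naïve or TD139-treated mice limit the precision for Fcgr1, Fcgr3, Fcgr4, Fcgr2b and Fcrls.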
